A study of Homo sapiens with 14 samples.

Results

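The genes described here encode subunits of the transcription factor NF-κB, inhibitors of its pathway and the products of a pair of its target genes. They are NFKB1, NFKB2, RELA, RELB, NFKBIA, NFKBIB, NFKBIE, TNFAIP3, BIRC3 and ICAM1. A gene was read through the probe set annotated with its symbol and no other. Of the 10 genes, 9 had such a probe set, each exactly 1, among 18372 genes on the array, and BIRC3 was not analysed here. Expression arrays were hybridised with RNA of 7 human lines of prostate cancer, each at 2 passages in culture, which gave 14 arrays. The lines carry a label for their capacity to metastasise to bone, and the study compared lines with and without it. PC3-N and PC3-ML are sublines of PC-3, a line from a bone metastasis of prostate cancer. PC3-N was labelled as not bone metastatic and PC3-ML as bone metastatic. PC3-ML (Clone 1) and PC3-ML (Clone 3), called Clone 1 and Clone 3 below, each grew from 1 cell of PC3-ML, so each is 1 clone, and both were labelled bone metastatic. PC3-N(PDGFRα) is PC3-N made to overexpress PDGFRα, the alpha receptor for platelet-derived growth factor, and was labelled bone metastatic. DU-145, a line from a brain metastasis of prostate cancer, and DU-145 (PDGFRα), which overexpresses the same receptor, were both labelled as not bone metastatic. No line with an empty vector was analysed here for either overexpressing line, and the sources used here do not name the promoter that drives the receptor. All 7 lines grew in the same serum-containing medium with gentamicin, and the labels name no stimulus of NF-κB.

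NF-κB is a family of dimers built from RELA, RELB, REL and the processed products of NFKB1 (p105 to p50) and NFKB2 (p100 to p52). In a resting cell the dimers are held in the cytoplasm by IκB proteins, encoded by NFKBIA (IκBα), NFKBIB (IκBβ) and NFKBIE (IκBε). Signals from receptors for interleukin-1, tumour necrosis factor and microbial products activate the IκB kinase, the IκB proteins are degraded, and the freed dimers enter the nucleus. Several genes they switch on shut the pathway down again. NFKBIA is the fastest of these, and TNFAIP3 encodes A20, an enzyme that edits ubiquitin chains on the upstream signalling complexes. ICAM1 encodes an adhesion molecule that leukocyte integrins bind and is a classical target of RELA. The mRNA level of a subunit does not show how much of the protein is in the nucleus.

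The regulatory sequence that NF-κB reads is the κB consensus, GGGRNNYYCC (R is A or G, Y is C or T, N is any base). This 10-base element was searched on both strands in the 250 bases before each annotated start site. The RefSeq promoter table (GRCh38.p14) held 12 start sites of 7 of the 9 measured genes, and 6 of these start sites, in 5 of the 7 genes, had at least 1 match. Over all 35116 promoters of the same length, 9.96% had a match. Sequences are shown for the 4 genes whose levels the results turn on, each 5′ to 3′ on the gene's own strand, in lower case with κB matches in capitals. They lie at chr14:35404750-35404999 on the minus strand (NFKBIA), chr6:137867009-137867258 on the plus strand (TNFAIP3), chr4:102501109-102501358 on the plus strand (NFKB1) and chr19:10270870-10271119 on the plus strand (ICAM1).
NFKBIA: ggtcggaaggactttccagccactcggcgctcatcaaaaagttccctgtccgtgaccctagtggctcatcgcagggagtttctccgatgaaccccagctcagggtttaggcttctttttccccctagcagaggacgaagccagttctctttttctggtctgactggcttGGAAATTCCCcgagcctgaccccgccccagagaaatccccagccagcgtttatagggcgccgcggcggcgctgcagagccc
TNFAIP3: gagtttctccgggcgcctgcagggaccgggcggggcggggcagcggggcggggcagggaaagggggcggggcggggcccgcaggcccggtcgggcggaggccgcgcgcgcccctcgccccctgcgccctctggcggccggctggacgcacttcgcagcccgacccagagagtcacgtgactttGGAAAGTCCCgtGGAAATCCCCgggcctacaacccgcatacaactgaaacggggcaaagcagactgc
NFKB1: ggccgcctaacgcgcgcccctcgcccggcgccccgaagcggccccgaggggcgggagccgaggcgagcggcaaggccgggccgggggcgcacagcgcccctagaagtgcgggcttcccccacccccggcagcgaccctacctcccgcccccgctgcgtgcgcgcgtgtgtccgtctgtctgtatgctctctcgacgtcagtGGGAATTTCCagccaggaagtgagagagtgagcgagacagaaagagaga
ICAM1: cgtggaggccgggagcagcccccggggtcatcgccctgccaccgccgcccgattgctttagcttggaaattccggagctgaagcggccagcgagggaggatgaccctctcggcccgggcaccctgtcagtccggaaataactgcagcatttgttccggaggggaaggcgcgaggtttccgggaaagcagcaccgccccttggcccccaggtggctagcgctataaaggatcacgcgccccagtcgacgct
NFKBIA had 1 match, 81 to 72 bases before its start. TNFAIP3 had 2 matches side by side, at 67 to 58 and 55 to 46 bases. The first NFKB1 start site had 1 match at 49 to 40 bases and the other start site of NFKB1 in the table had 0. The ICAM1 window held 0 matches to the consensus, but it holds tggaaattcc, which departs from the consensus only at its first base. Among the genes not shown, NFKB2 had up to 3 matches at a single start site, NFKBIB had 2 that overlap, and RELA had 0. A match is a string of letters and not a known binding site, and binding was not measured in these samples.

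Values were intensities on a linear scale, normalised by the authors with RMA, and were compared as log2 intensity with limma. The array medians lay between 29.9 and 31.6, and the passages of a line correlated at 0.989 to 0.996 over all genes. There were 2 passages per line and nothing to show that they came from separate thawed stocks. Every p-value of a comparison between lines is therefore set against the spread between passages. Only the bone-metastatic label was tested on line means, so its p-values are set against the spread between lines. PDGFRA rose from 106 ± 4.32 (SD, n = 2) in PC3-N to 834 ± 23.3 in its overexpressing line, and from 26.9 ± 1.92 to 111 ± 26.4 in the DU-145 pair, in the direction of the labels. In Clone 1 it was 28.8 ± 3.22, below its parent PC3-ML at 130 ± 36.3. All 5 epithelial markers were measured, with EPCAM up to 1630, and their summed intensity ran from 1197 in PC3-ML to 2956 in DU-145. The sum hides CDH1, whose line means in the PC-3 sublines ran only from 25.9 (PC3-ML) to 31.7 (PC3-N), near the array median. Both DU-145 lines had more CDH1, at 166 ± 119 for the unmodified line and 53.4 ± 13.9 for the overexpressing one. Of the 5 prostate luminal markers, KLK3 and KLK2 were measured, and both stayed between 25.7 and 32.2, near the array median. Leukocyte markers (5 of 6 measured) summed to 115 to 123 and fibroblast markers (4) to 119 to 127 across the lines. Endothelial markers (3) summed to between 69.2 and 135, highest in Clone 1, and PECAM1 was the 1 gene of them whose line means spanned a log2 unit or more. The part of any marker in the results was not tested.

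Of the 9 measured genes, 7 differed among the 7 lines (limma moderated F, Benjamini-Hochberg adjusted over all genes, under 0.05), against 38.0% of all genes. The exceptions were NFKB2 (adjusted p = 0.782) and RELA (adjusted p = 0.069). The count fell to 4 without passage 2 of DU-145 (PDGFRα). NFKBIA (adjusted p = 1.59e-05), ICAM1 (0.000111), TNFAIP3 (0.000899) and NFKB1 (0.00933) were called whichever array was left out, whereas RELB, NFKBIB and NFKBIE were not. The line means of NFKBIA spanned 1.91 log2 units, those of TNFAIP3 1.32 and those of ICAM1 1.05. A span of 1 log2 unit or more was found in these 3 of 9 genes and in 11.8% of all genes, where the median span was 0.31. The 3 are the feedback inhibitors NFKBIA and TNFAIP3 and the adhesion molecule gene ICAM1. Among the subunits of the set, NFKB1 spanned 0.58, RELA 0.46, RELB 0.34 and NFKB2 0.24.

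**Figure D1:**
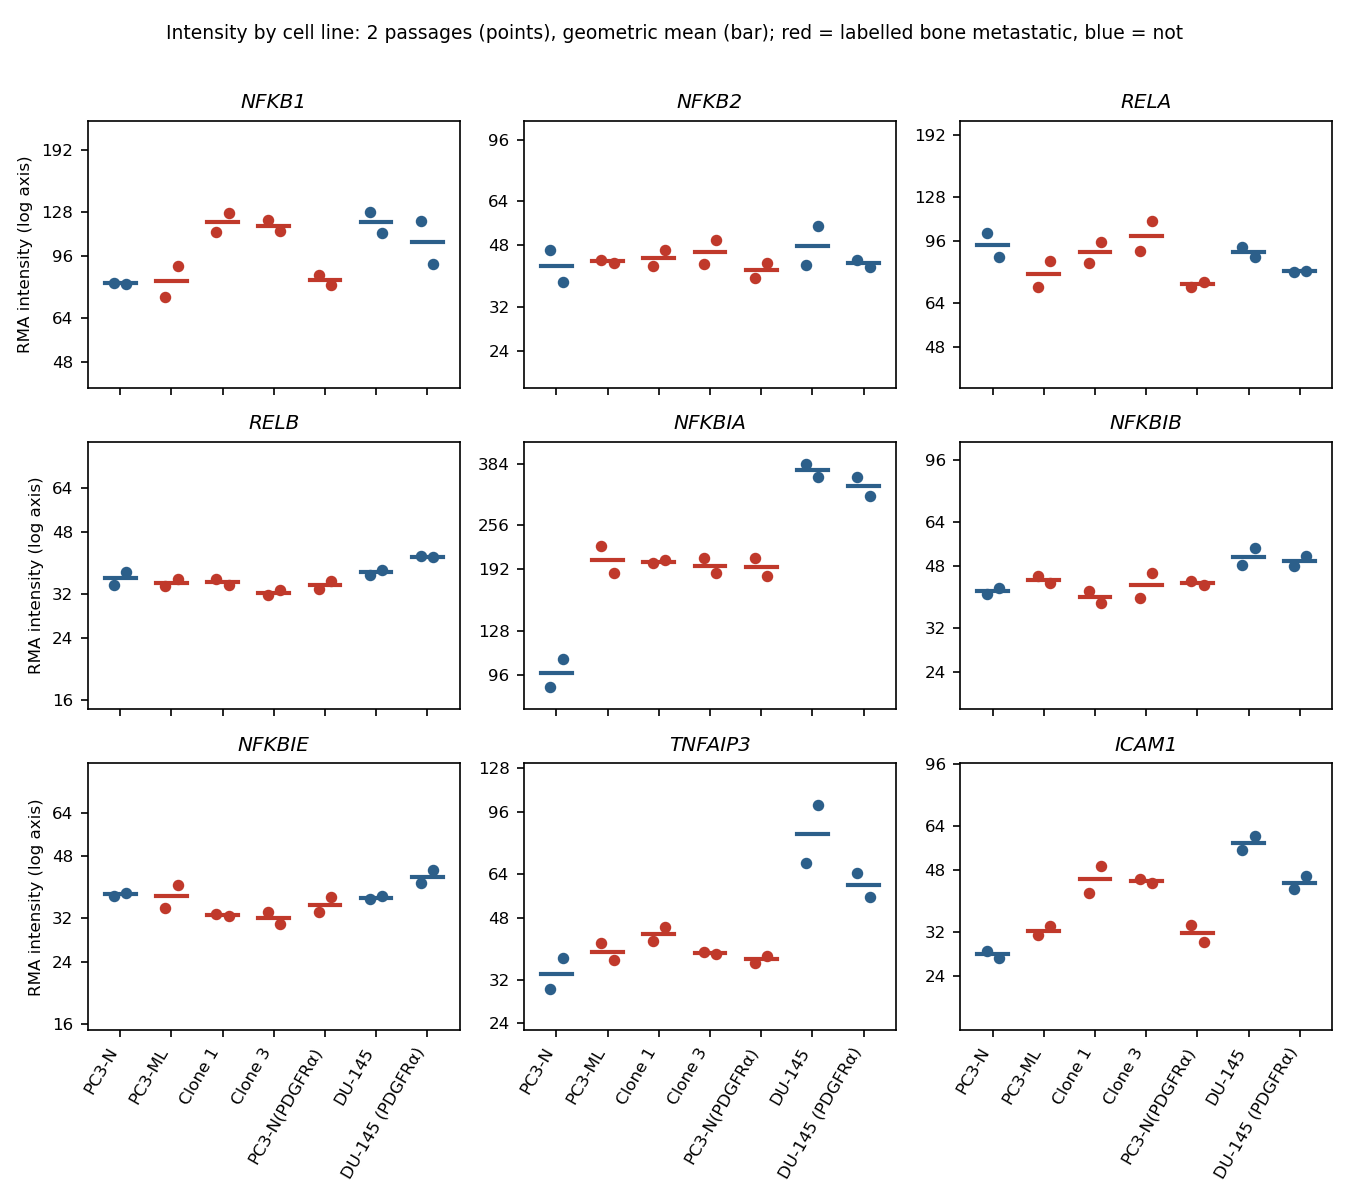
RMA intensity (log axis, the same width in log2 units in each panel) of the 9 measured genes by cell line, with 1 point per passage and a bar at the geometric mean. Red marks the 4 lines labelled bone metastatic and blue the 3 others. NFKBIA is lowest in PC3-N (88.9 and 107), near 200 in the 4 red lines and highest in the DU-145 lines, whereas NFKB2 and RELB stay within a narrow band.

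NFKBIA, which encodes the inhibitor that holds RELA-containing dimers in the cytoplasm, fell into 3 separate levels. Its intensity in PC3-N was 88.9 in passage 1 and 107 in passage 2. In PC3-ML it was 224 and 187, in Clone 1 it was 200.5 and 204, in Clone 3 it was 206 and 187, and in PC3-N(PDGFRα) it was 207 and 184. In DU-145 it was 383 and 352, and in DU-145 (PDGFRα) it was 352 and 310.5. No array of PC3-N overlapped with any other line, and no array of the DU-145 lines overlapped with any PC-3 subline. The 4 lines labelled bone metastatic had overlapping arrays, and neighbours in their order differed by 0.01 to 0.04 log2 units. By contrast the step from PC3-N up to PC3-N(PDGFRα), the lowest of those 4, was 1.00 log2 units (SE 0.12). The step from PC3-ML, the highest of them, up to DU-145 (PDGFRα) was 0.69 (SE 0.12).

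TNFAIP3, which encodes the ubiquitin-editing enzyme A20, was high in the DU-145 lines. Its intensity was 68.7 and 100.5 in DU-145 and 64.2 and 55.1 in DU-145 (PDGFRα). In the PC-3 sublines it ran from 30.1 in passage 1 of PC3-N to 45.2 in passage 2 of Clone 1. The values were 30.1 and 36.8 in PC3-N, 40.7 and 36.3 in PC3-ML, 41.1 and 45.2 in Clone 1, 38.4 and 37.9 in Clone 3, and 35.7 and 37.3 in PC3-N(PDGFRα). The 4 DU-145 arrays therefore did not overlap with the 10 PC-3 arrays, and the 5 PC-3 sublines spanned only 0.37 log2 units. The passages of DU-145 differed from each other more than in any other line (SD 0.39 on the log2 scale). The PC-3 values lie close to the array median, where RMA keeps background signal within the value and folds are understated.

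The other IκB genes varied little. NFKBIB, which encodes IκBβ, was 48.3 and 53.8 in DU-145 and 47.8 and 51.2 in DU-145 (PDGFRα), against 37.7 to 45.9 over the 10 PC-3 arrays. Its DU-145 arrays stood above all PC-3 arrays by a small margin, and among the PC-3 sublines no neighbours in the order of means were apart. NFKBIE, which encodes IκBε, was 40.3 and 43.9 in DU-145 (PDGFRα) and 36.4 and 37.0 in DU-145. In the PC-3 sublines it ran from 30.9 in Clone 3 to 39.9 in PC3-ML. Only DU-145 (PDGFRα) stood apart from its neighbour in the order, here PC3-N at 37.1 and 37.7, by 0.17 log2 units (SE 0.08). Neighbours are called apart where both passages of one lie above both of the other and the means differ by over 2 SE.

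Among the subunits, NFKB1 split the lines into a low and a high set. It encodes p105, the precursor of p50, and is itself induced by NF-κB. Its intensity was 80.5 and 79.7 in PC3-N, 73.5 and 89.8 in PC3-ML, and 84.8 and 79.4 in PC3-N(PDGFRα). It was 112 and 127 in Clone 1, 121 and 113 in Clone 3, 128 and 112 in DU-145, and 121 and 91.2 in DU-145 (PDGFRα). The 6 arrays of the low lines did not overlap with the 8 arrays of the high lines. The lowest high line, DU-145 (PDGFRα), stood 0.36 log2 units (SE 0.14) above PC3-N(PDGFRα), and its passages differed by more than those of any other line for this gene. Within each set the neighbouring lines overlapped.

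RELA, the subunit with the transactivation domain that drives most canonical targets, ran from 71.1 in PC3-N(PDGFRα) to 109.5 in Clone 3. It was 101 and 86.6 in PC3-N, 71.3 and 84.1 in PC3-ML, 83.1 and 95.8 in Clone 1, 90.3 and 109.5 in Clone 3, and 71.1 and 73.6 in PC3-N(PDGFRα). The DU-145 values were 92.3 and 86.8, and those of DU-145 (PDGFRα) 78.5 and 79.0. No neighbours in the order of means were apart. NFKB2, the precursor of the non-canonical subunit p52, ran from 37.8 to 54.4 over the 14 arrays, and both its lowest and its highest array belong to a line whose other passage lay among the rest. RELB, the usual partner of p52, ran from 31.8 in Clone 3 to 41.1 in DU-145 (PDGFRα). The latter line (41.1 and 40.8) stood 0.15 log2 units (SE 0.06) above DU-145 (36.3 and 37.5), and no other neighbours in the order of means were apart.

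ICAM1, the adhesion molecule, showed the same low and high sets of lines as NFKB1, with a further step at each end. Its intensity was 28.3 and 27.0 in PC3-N, 31.3 and 33.2 in PC3-ML, and 33.6 and 30.1 in PC3-N(PDGFRα). It was 41.4 and 49.4 in Clone 1, 45.4 and 44.1 in Clone 3, 42.3 and 46.3 in DU-145 (PDGFRα), and 54.7 and 60.1 in DU-145. The 3 lines lowest in NFKB1 were also the 3 lowest in ICAM1. DU-145 was highest in ICAM1, while in NFKB1 it overlapped with Clone 1. PC3-N stood below the next line by 0.20 log2 units (SE 0.09), and DU-145 above the next by 0.34 (SE 0.09). The 3 lowest lines were near the array median, so their folds against brighter lines are understated on this scale.

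The genes whose line means followed these 3 wide-ranging genes most closely were taken from 2122 genes that also spanned at least 1 log2 unit (Y-linked genes, small RNAs and LOC names left out), by Pearson's r over the 7 line means. For NFKBIA they were FAM111B (r = 0.978), the chemokine gene CXCL2 (0.942), MIER1 (0.941), MGST1 (0.934) and the ubiquitin ligase gene BIRC2 (0.932). For TNFAIP3 they were GAL (0.986), MGC70870 (0.982), B4GALT1 (0.980), FAM83A (0.975) and CT83 (0.974). For ICAM1 they were PSMD5 (0.915), CUTC (0.909), SMC3 (0.896), MYL12B (0.892) and SMC6 (0.889). The 5 PC-3 sublines share their origin and so do both DU-145 lines, so the 7 points are not independent, and the coefficients were not tested.

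Against PC3-N, the bone-metastatic sublines of the same background were compared one by one. NFKBIA was higher in each of the 4 lines. ICAM1 and NFKB1 were higher in both clones. No measured gene was called lower in any of these 4 comparisons, which share the PC3-N arrays and are not independent of each other.

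PC3-ML differed from PC3-N in 1 of the 9 genes, against 0.218% of all genes called higher and 0.131% called lower. NFKBIA was 2.10-fold higher, a log2 difference of 1.07 (SE 0.12, 95% interval 0.81 to 1.33, adjusted p = 0.00615), and higher on both arrays. ICAM1 differed by 0.22 (adjusted p = 0.437), TNFAIP3 by 0.21 (0.798), NFKB1 by 0.02 (0.996) and RELA by -0.27 (0.451). The NFKBIA call was lost, at 0 of 9 genes, without passage 1 of PC3-ML, without passage 1 of PC3-N, or when only these 4 arrays were fitted (adjusted p = 0.341). Its value stayed between 0.94 and 1.20 log2 units over all settings tried.

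PC3-N(PDGFRα) also differed from PC3-N in 1 of the 9 genes, against 1.52% of all genes called higher and 0.680% called lower. NFKBIA was higher by 1.00 log2 units (SE 0.12, 95% interval 0.74 to 1.26, adjusted p = 0.00343). The next largest difference was in RELA, at -0.37 (95% interval -0.64 to -0.11, adjusted p = 0.166), with no overlap between the arrays. ICAM1 differed by 0.20 (adjusted p = 0.394) and NFKB1 by 0.03 (0.969). The NFKBIA call held whichever array was left out and was lost when only these 4 arrays were fitted (adjusted p = 0.113).

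Clone 1 differed from PC3-N in 3 of the 9 genes, all higher, against 8.02% of all genes called higher and 5.11% called lower. NFKBIA was 2.07-fold higher, by 1.05 log2 units (SE 0.12, adjusted p = 0.000414). ICAM1 was 1.64-fold higher, by 0.71 (SE 0.09, adjusted p = 0.00108). NFKB1 was 1.49-fold higher, by 0.58 (SE 0.14, adjusted p = 0.021). TNFAIP3 differed by 0.37 with no overlap between the arrays (adjusted p = 0.191), and NFKBIE by -0.19 (0.175). The NFKB1 call was lost without either passage of PC3-N or passage 2 of Clone 1 (adjusted p up to 0.147).

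Clone 3 differed from PC3-N in the same 3 genes, against 4.16% of all genes called higher and 2.69% called lower. NFKBIA was 2.02-fold higher, by 1.01 log2 units (SE 0.12, adjusted p = 0.00144). ICAM1 was 1.62-fold higher, by 0.69 (SE 0.09, adjusted p = 0.00264). NFKB1 was 1.46-fold higher, by 0.55 (SE 0.14, adjusted p = 0.044), close to the threshold. RELA differed by 0.09 (adjusted p = 0.822) and NFKBIE by -0.22 (0.161). The NFKB1 call was lost in 8 of the 14 fits that left out 1 array, those without an array of PC3-N, PC3-N(PDGFRα), Clone 1 or Clone 3, with adjusted p up to 0.208.

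**Figure D2:**
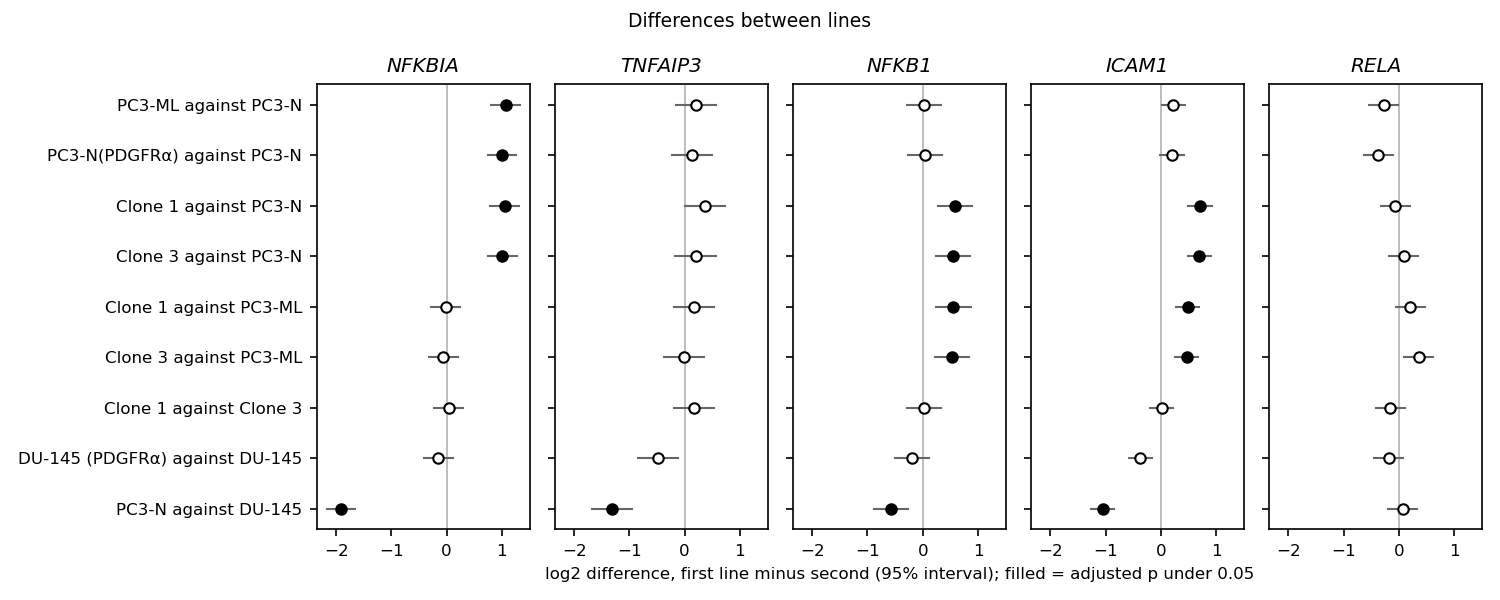
Log2 difference in intensity between the lines of each row, first minus second, for 5 genes, with 95% intervals from the limma fit and filled points at an adjusted p under 0.05. The NFKBIA points lie near 1 in the 4 comparisons with PC3-N and near 0 between the clones and PC3-ML, whereas NFKB1 and ICAM1 are filled for the clones against both PC3-N and PC3-ML.

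The clones were then compared with PC3-ML, the line they came from. Clone 1 differed in 2 of the 9 genes, against 9.01% of all genes called higher and 4.77% called lower. NFKB1 was 1.47-fold higher, by 0.56 log2 units (SE 0.14, adjusted p = 0.0245), and ICAM1 was 1.40-fold higher, by 0.49 (SE 0.09, adjusted p = 0.00704). NFKBIA differed by -0.02 (95% interval -0.28 to 0.24, adjusted p = 0.961), an interval that leaves out the size of its difference from PC3-N. The count was 0 without passage 1 of PC3-ML or passage 2 of Clone 1, and 1 without passage 1 of Clone 1.

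Clone 3 differed from PC3-ML in the same 2 genes, against 5.20% of all genes called higher and 2.90% called lower. NFKB1 was 1.44-fold higher, by 0.53 log2 units (SE 0.14, adjusted p = 0.0455), and ICAM1 was 1.39-fold higher, by 0.47 (SE 0.09, adjusted p = 0.0143). NFKBIA differed by -0.06 (95% interval -0.32 to 0.20, adjusted p = 0.887). RELA differed by 0.36 with no overlap between the arrays (adjusted p = 0.0997). The count was 0 without passage 1 of PC3-ML or either passage of Clone 3, and 1 without either passage of PC3-N, PC3-N(PDGFRα) or Clone 1.

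Between Clone 1 and Clone 3, 0 of the 9 genes and 10.5% of all genes were called (limma). At an unadjusted p under 0.05 the figures were 0 of 9 and 20.5%, and with 9 genes such counts say little. The differences were 0.04 for NFKBIA (95% interval -0.22 to 0.30), 0.03 for NFKB1 (-0.28 to 0.34), 0.02 for ICAM1 (-0.19 to 0.23) and 0.17 for TNFAIP3 (-0.19 to 0.54). PDGFRA did differ, by -2.16 log2 units in Clone 1 against Clone 3 (adjusted p = 0.000143).

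In the DU-145 background, overexpression of PDGFRα was accompanied by no called difference in the 9 genes (limma), against 0.310% of all genes called, and 4 of the 9 had an unadjusted p under 0.05, beside 13% of all genes. ICAM1 differed by -0.37 log2 units (SE 0.09, adjusted p = 0.132) and TNFAIP3 by -0.48 (SE 0.16, adjusted p = 0.243). NFKBIE differed by 0.20 (adjusted p = 0.343) and RELB by 0.15 (0.307). The arrays of the lines did not overlap in these 4 genes, nor in RELA (-0.18, adjusted p = 0.564) and NFKBIA. With so few arrays per line, a lack of overlap often arises by chance, and its share over all genes was not computed. It therefore does not show an effect of the overexpression on these genes. NFKBIA differed by -0.15 (95% interval -0.41 to 0.11, adjusted p = 0.646).

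The PDGFRα effect, here the overexpressing line minus its unmodified line, was compared between backgrounds as an interaction contrast. This was the effect in PC3-N minus the effect in DU-145. No empty-vector line was analysed, so the part of the receptor cannot be told apart from that of making the line. NFKBIA was the 1 gene of 9 called, against 0.419% of all genes called with a larger effect in PC3-N and 0.114% with a smaller one. Its effect was 1.15 log2 units larger in PC3-N (SE 0.16, 95% interval 0.79 to 1.52, adjusted p = 0.0194). ICAM1 gave 0.57 (adjusted p = 0.106) and TNFAIP3 0.62 (0.306). The call was lost, at 0 of 9 genes, without passage 1 of PC3-N, PC3-N(PDGFRα) or DU-145, without passage 2 of DU-145 (PDGFRα), or with only these lines fitted (adjusted p = 0.0962). PDGFRA itself reached a higher intensity in PC3-N(PDGFRα) than in DU-145 (PDGFRα), and the lines started from different NFKBIA levels.

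The unmodified lines labelled as not bone metastatic, PC3-N and DU-145, differed in 5 of the 9 genes, all lower in PC3-N, against 9.91% of all genes called lower and 13.5% called higher. NFKBIA was 3.77-fold lower in PC3-N, a log2 difference of -1.91 (SE 0.12, adjusted p = 2.82e-06). TNFAIP3 was 2.50-fold lower (-1.32, SE 0.16, adjusted p = 0.000263) and ICAM1 2.07-fold lower (-1.05, SE 0.09, adjusted p = 3.21e-05). NFKB1 differed by -0.58 (adjusted p = 0.0123) and NFKBIB by -0.33 (adjusted p = 0.0199). RELA differed by 0.07 (adjusted p = 0.795), RELB by -0.06 (0.602) and NFKB2 by -0.19 (0.405). The first 3 genes were called in all settings tried, and without either passage of PC3-N they were the only ones, 3 of 9.

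For the bone-metastatic label, the line and not the array is the unit, so the means of 4 labelled lines were set against those of 3 others. No gene of the 9 and 0% of all genes were called (limma), with 2 of the 9 and 12.2% of all genes at an unadjusted p under 0.05. NFKBIA differed by -0.19 log2 units, bone metastatic minus others (exact permutation p = 0.971, two-sided), since the others held both its lowest and its highest lines. TNFAIP3 differed by -0.49 (exact permutation p = 0.286), ICAM1 by -0.12 (0.743) and NFKB1 by -0.03 (0.971). RELB differed by -0.16, and was the 1 gene whose lines did not overlap (exact permutation p = 0.0571). The share of all genes without such overlap was not computed. RELB ran only from 31.8 to 41.1 over the arrays, not far above the array medians. With 35 ways to assign the labels, 0.0571 is the smallest two-sided p this design allows. For NFKBIE the exact permutation p was 0.114 at -0.18, and for the remaining genes it was 0.229 to 0.8. Without the line PC3-N, 3 genes were called lower in the labelled lines, NFKBIA (-0.80, adjusted p = 0.00144), TNFAIP3 (-0.85, 0.0199) and NFKBIB (-0.26, 0.0383), with 6.24% of all genes called lower. Both lines that then stood for the unlabelled side were DU-145 lines, so the label and the background cannot be told apart there.

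The remaining genes of the pathway were read from lists by role. REL, the remaining subunit gene, had its highest values in the DU-145 lines, at 213 and 154 in DU-145 and 234 and 182 in DU-145 (PDGFRα). In the PC-3 sublines it was 54.4 and 61.8 in PC3-N, 64.0 and 73.4 in PC3-ML, 114 and 107 in Clone 1, 88.4 and 85.9 in Clone 3, and 81.4 and 83.0 in PC3-N(PDGFRα). The DU-145 arrays did not overlap with the PC-3 arrays. REL differed by -1.64 log2 units in PC3-N against DU-145 (adjusted p = 4.7e-05) and was higher in Clone 1 than in PC3-N by 0.93 (adjusted p = 0.00368) and than in PC3-ML by 0.69 (adjusted p = 0.0156). The last of these was lost without passage 1 of PC3-ML or either passage of Clone 1.

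Among the lists, 5 of 11 measured receptors upstream, 5 of 12 adaptors and ubiquitin ligases, 6 of 9 kinases, 10 of 15 other inhibitors and 14 of 28 inducible targets differed among the 7 lines, beside 38.0% of all genes. The adaptor count was 9 without passage 2 of DU-145 (PDGFRα), and the others moved by at most 2 when an array was left out. The kinase list holds IKBKG, which has a near-identical pseudogene copy, and its value is uncertain.

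**Figure D3:**
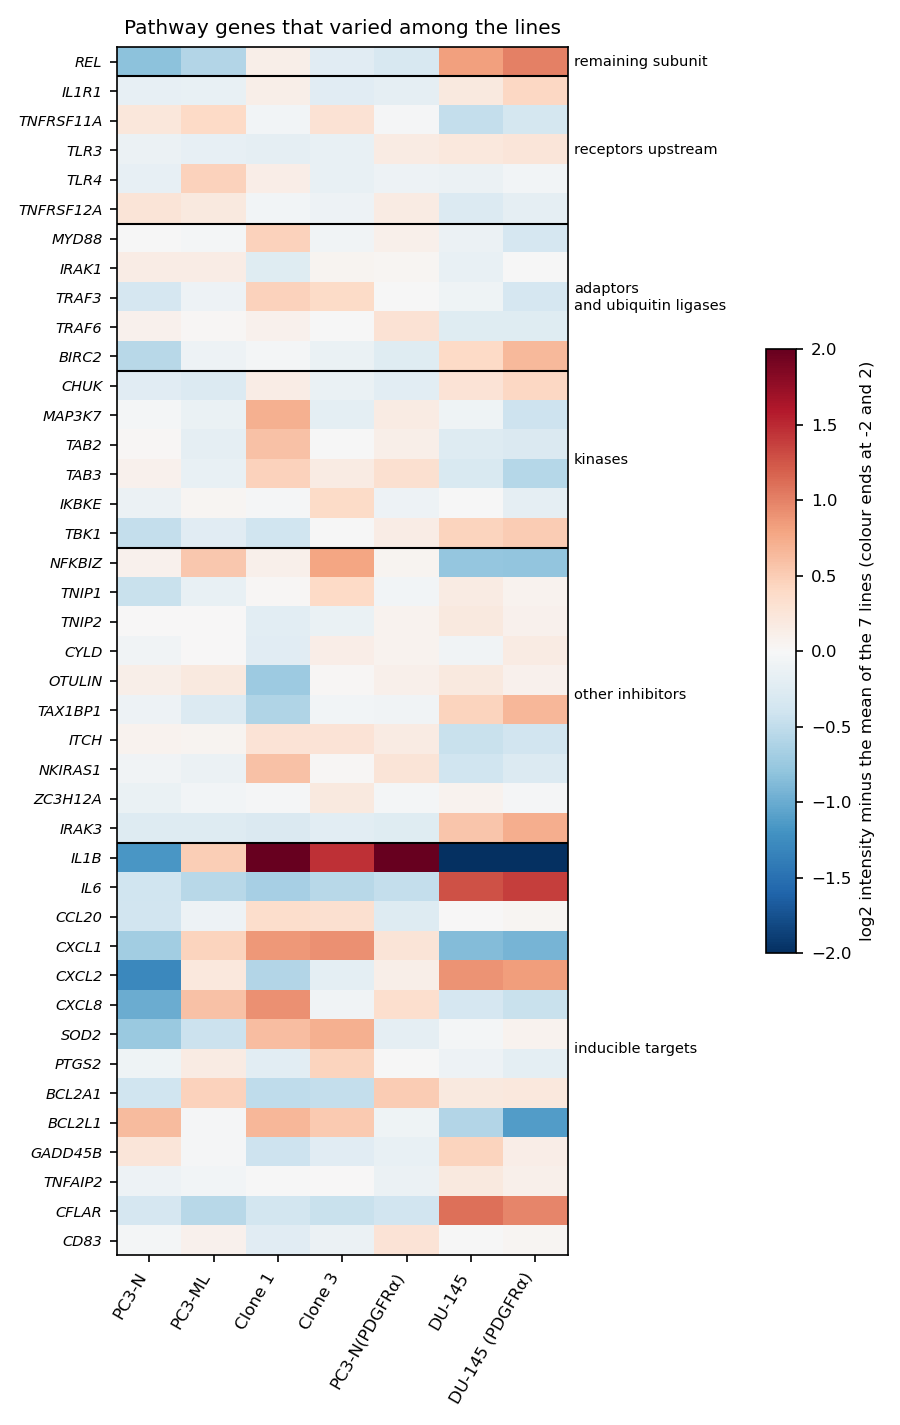
Line means of log2 intensity minus the mean of the 7 lines for the pathway genes that differed among lines, grouped by list, with colour ending at -2 and 2. IL1B, CXCL1 and CXCL8 are red in several bone-metastatic PC-3 sublines and blue in PC3-N, whereas REL, IL6, CFLAR and CXCL2 are red in the DU-145 lines.

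The inducible targets called against PC3-N were higher with 1 exception, GADD45B in Clone 1 (-0.66), and the largest differences were in genes for secreted cytokines and chemokines. In PC3-ML, 2 of 28 targets were higher and 0 lower, IL1B (interleukin-1β) by 1.66 log2 units and the chemokine gene CXCL1 by 1.15. The count was 1 without passage 1 of PC3-ML, passage 1 of PC3-N or either passage of Clone 1, and 4 without passage 2 of PC3-N. In PC3-N(PDGFRα), 5 were higher and 0 lower, with IL1B at 3.72, CXCL2 at 1.42, CXCL8 (interleukin-8) at 1.34 and CXCL1 at 0.95 among them. That count was 1 without passage 1 of PC3-N or either passage of PC3-N(PDGFRα), and 2 without either passage of Clone 1 or Clone 3. In Clone 1, 5 were higher and 1 lower, with IL1B at 3.16, CXCL8 at 1.91, CXCL1 at 1.57 and SOD2, the mitochondrial superoxide dismutase, at 1.36. In Clone 3, 6 were higher and 0 lower, with IL1B at 2.62, CXCL1 at 1.62, SOD2 at 1.46 and CXCL2 at 1.10. The Clone 3 count was 3 without passage 2 of PC3-N or passage 1 of Clone 3. The median difference over the 28 targets was 0.05 in PC3-ML, 0.08 in PC3-N(PDGFRα), -0.02 in Clone 1 and 0.00 in Clone 3. Over all genes it was -0.01, 0.00, -0.02 and -0.02, and most targets were not called. Of all genes, 0.218% were called higher and 0.131% lower in PC3-ML, and 1.52% and 0.680% in PC3-N(PDGFRα). These shares were 8.02% and 5.11% in Clone 1, and 4.16% and 2.69% in Clone 3.

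Against their parent PC3-ML, the clones held higher SOD2 (1.05 in Clone 1, 1.15 in Clone 3) and IL1B (1.50 and 0.96), and lower BCL2A1, an anti-apoptotic gene (-0.96 and -0.93), and CCL2, a monocyte chemokine gene (-0.40 and -0.42). CCL2 was dim, at 32.2 in PC3-ML, close to the array medians, and at 24.4 in Clone 1 and 24.1 in Clone 3, below them. It was not called among the 7 lines (limma moderated F, adjusted p = 0.0931). In all, 2 of 28 targets were higher and 3 lower in Clone 1, the last being CD83 (-0.31), and 2 were higher and 2 lower in Clone 3. Over all genes, 9.01% were called higher and 4.77% lower in Clone 1, and 5.20% and 2.90% in Clone 3. Without passage 1 of PC3-ML, 2 targets remained called in Clone 1 and 1 in Clone 3. The Clone 1 count was also 2 or 3 without a passage of Clone 1 and 8 without a passage of DU-145, and the Clone 3 count was 2 without passage 1 of Clone 3.

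Between PC3-N and DU-145, 2 of 28 targets were higher in PC3-N and 6 lower, beside 13.5% and 9.91% of all genes. CXCL2 (-2.19), IL6 (interleukin-6, -1.67) and CFLAR, an inhibitor of caspase-8 (-1.44), were lower in PC3-N. IL1B (1.54) was higher in PC3-N, as was the anti-apoptotic gene BCL2L1 (1.23). The DU-145 lines thus held the highest NFKBIA, TNFAIP3 and IL6 and the lowest IL1B of the 7 lines.

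Other inhibitors of the pathway were read beside the measured members. TNIP1, which binds A20 and carries it to ubiquitin, was higher than in PC3-N in Clone 1 (0.46) and Clone 3 (0.84), and PC3-N lay below DU-145 (-0.61). ZC3H12A, an RNase that degrades cytokine mRNAs, was higher in Clone 3 (0.32), and NKIRAS1, an IκB-binding Ras-like protein, in Clone 1 (0.67). OTULIN, which removes linear ubiquitin chains, and TAX1BP1, an adaptor of A20, were lower in Clone 1 than in PC3-N (-0.84 and -0.50). In counts, 2 of 15 were higher and 2 lower in Clone 1, beside 8.02% and 5.11% of all genes, and 2 were higher and 0 lower in Clone 3, beside 4.16% and 2.69%. Between PC3-N and DU-145, 2 of 15 were higher in PC3-N and 4 lower, beside 13.5% and 9.91% of all genes. Among them were NFKBIZ, a nuclear IκB protein, at 0.87, IRAK3, a decoy of the interleukin-1 receptor kinases, at -0.82 and TAX1BP1 at -0.55.

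Of all genes, 8.02% were called higher and 5.11% lower in Clone 1 against PC3-N, and 4.16% and 2.69% in Clone 3. In PC3-N against DU-145 these shares were 13.5% and 9.91%. Of the kinases, 3 of 9 were higher in Clone 1 than in PC3-N and 0 lower. They were MAP3K7, which encodes the TAK1 kinase (0.76), its partner gene TAB2 (0.56) and CHUK, which encodes IKKα (0.38). Without passage 1 of Clone 1 that count was 1. IKBKE (0.51) was the 1 kinase higher in Clone 3, a count of 0 without passage 2 of Clone 3 and 2 without a passage of DU-145. Between PC3-N and DU-145, TBK1 (-0.92) and CHUK (-0.49) were lower in PC3-N and TAB3 (0.40) higher, and 1 of the 3 was called without passage 1 of PC3-N.

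Of the adaptors, TRAF3, which restrains the non-canonical kinase, was higher than in PC3-N in Clone 1 (0.80) and in Clone 3 (0.72). In Clone 3 it was the 1 adaptor of 12 called, beside 4.16% of all genes called higher and 2.69% lower. MYD88, the adaptor of the interleukin-1 and Toll-like receptors (0.48), and IRAK2 (0.44) were also higher in Clone 1 and IRAK1 was lower (-0.39). This made 3 of 12 higher and 1 lower, beside 8.02% and 5.11% of all genes. That count of 4 fell to 2 without a passage of PC3-N or passage 1 of Clone 1, and to 1 without passage 2 of Clone 1. BIRC2, a ubiquitin ligase of the tumour necrosis factor receptor complex, was lower in PC3-N than in DU-145 (-0.95), and TRAF6 (0.32) and IRAK1 (0.29) were higher. This made 2 of 12 higher and 1 lower, beside 13.5% and 9.91% of all genes. That count of 3 ran from 1 without passage 2 of PC3-N or either passage of Clone 3 to 5 without a passage of DU-145 (PDGFRα).

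Of the receptors, TLR4 was higher in PC3-ML than in PC3-N (0.61) and TLR3 in PC3-N(PDGFRα) (0.28). Each was 1 of 11, beside 0.218% and 1.52% of all genes called higher. Both sensors of microbial products were dim. TLR4 was 21.9 ± 0.11 in PC3-N, below the array medians, against 33.6 ± 2.66 in PC3-ML. TLR3 was 23.0 ± 1.10 in PC3-N and 27.8 ± 0.29 in PC3-N(PDGFRα), both below the array medians. The TLR4 call was lost without passage 1 of PC3-ML or of PC3-N, and the TLR3 call without any 1 of 12 arrays, those of DU-145 being the exception. In Clone 1, TNFRSF1A, the main receptor of tumour necrosis factor (-0.70), and TNFRSF11A, which encodes RANK (-0.28), were lower than in PC3-N and TLR4 higher (0.29). This made 1 of 11 higher and 2 lower, beside 8.02% and 5.11% of all genes. That count of 3 was 0 without passage 1 of PC3-N or passage 2 of Clone 1, 1 without the other passage of either line and 5 without a passage of DU-145. Between PC3-N and DU-145, 2 of 11 receptors were higher in PC3-N and 3 lower, beside 13.5% and 9.91% of all genes. The higher were TNFRSF11A (0.70) and TNFRSF12A (0.55), and the lower IL1RAP (-0.47), IL1R1 (-0.36) and TLR3 (-0.33). That count of 5 was 3 without passage 1 of either line and 2 without passage 2 of PC3-N.

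IL1B is both a target of NF-κB and, through the interleukin-1 receptor, one of its activators. Its intensity was 71.4 and 95.5 in PC3-N, 264 and 258 in PC3-ML, 561 and 461 in Clone 3, 770.1 and 704 in Clone 1, and 1103 and 1066 in PC3-N(PDGFRα). In DU-145 it was 27.3 and 29.7, and in DU-145 (PDGFRα) 32.1 and 28.2, near the array median. Across the 4 bone-metastatic lines IL1B ran from 258 to 1103 while NFKBIA stayed between 184 and 224.

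**Figure D4:**
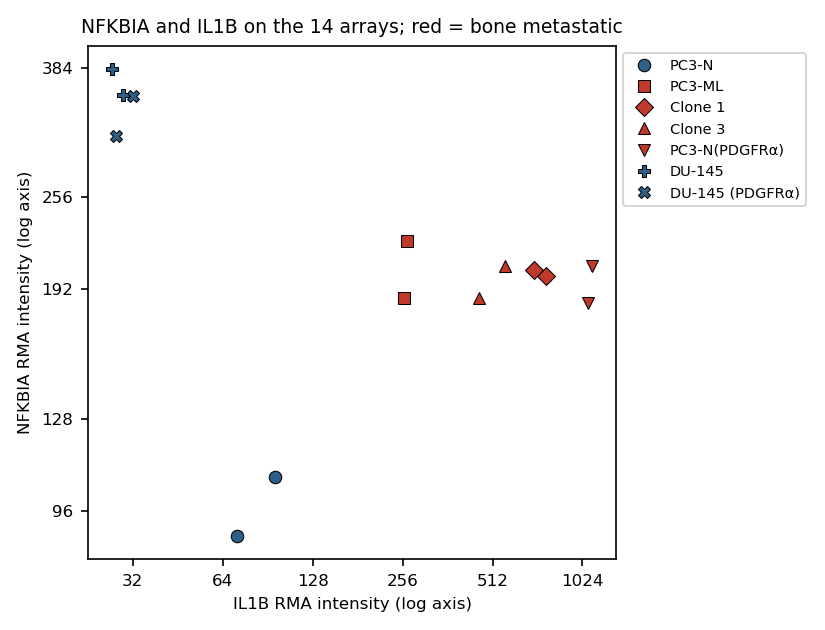
NFKBIA intensity against IL1B intensity on the 14 arrays (both axes logarithmic), with a symbol for each line, red for lines labelled bone metastatic and blue for the others. The arrays form 3 separate clusters: PC3-N low in both, the 4 red lines near 200 for NFKBIA with IL1B from 258 to 1103, and the DU-145 lines with NFKBIA from 310.5 to 383 and IL1B near 30.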

How the data were processed

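RNA from 14 cultures (7 lines, 2 passages each) was profiled on 1-colour expression arrays. The deposited values are linear intensities per probe set, which the authors normalised with RMA per the submitters' processing notes (version not stated there). The deposited table was one for the whole series, and every column was matched to a sample by its label. Of 28829 probe sets, 19291 had 1 gene symbol, and the brightest on average stood for each of 18372 genes. Values were taken as log2 without a pseudocount and fitted with limma 3.58.1 (R 4.3.3), with 1 mean per line, 7 residual degrees of freedom and eBayes. A gene was called at a Benjamini-Hochberg adjusted p under 0.05 over all genes. The bone-metastatic label was tested on line means, with an exact permutation test over lines. The fit was tested on simulated data.

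All listed genes are named, with up to 4 called genes of largest change per pathway list and comparison and the 5 most alike genes. GADD45B, CD83, BCL2L1 and, between PC3-N and DU-145, TLR3 fall outside this rule and were named after their values were seen. The genes and lists were chosen with earlier results of these data known. Alternatives were quantile normalisation, a filter on dim genes, the mean of all probe sets, log2(intensity + 16), a trended robust prior, the replicate number as a block, fewer lines and leaving out arrays or lines. Replicate numbers were not treated as pairing the samples. Deviations of same-numbered passages correlated at -0.20 to 0.25 between lines, over 0.1 in 5 of 21 pairs of lines. Whether some lines shared a batch was not tested. Promoters came from RefSeq (GRCh38.p14). RELB, NFKBIE and BIRC3 promoters are not shown.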

Additional observations from a re-analysis of the deposited data

Results flagged for a closer look

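NFKBIA stood out because its PDGFRα effect, overexpressing minus unmodified line, differed between the PC3-N and DU-145 backgrounds in the interaction contrast. The effect was 1.15 log2 units larger in PC3-N (1.00 in PC3-N and -0.15 in DU-145, adjusted p = 0.0194 in limma). Both arrays of PC3-N(PDGFRα) lay above both of PC3-N. In DU-145 the 95% interval of the effect included 0 (-0.41 to 0.11), and the nearest arrays of the lines were almost level, at 352.2 and 351.9. Without passage 1 of PC3-N, PC3-N(PDGFRα) or DU-145, or passage 2 of DU-145 (PDGFRα), it was no longer called. Its value over all settings ran from 1.02 to 1.28. The intensity that PDGFRA reached, the starting level of NFKBIA and the bone-metastatic label all differ between the backgrounds, and their parts in the result cannot be told apart.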

How the results depend on the processing

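Single calls were followed only for the 9 measured genes, REL and IL1B. Of their 952 alternative values, 0 reversed, 83 lost a call and 15 gained one. These values cover the differences called in some setting and all values of the test among the lines. Some of the 952 are adjusted p-values of the test among all lines, which have no sign and so could not reverse. The 84 differences never called in any setting were left out of this count. They gave 1710 alternative values, and 19 of these had another sign by over 1 SE. With only the compared lines fitted, which leaves fewer residual degrees of freedom, the count of called genes was 0 for PC3-ML and for PC3-N(PDGFRα) against PC3-N, 0 for the difference of the PDGFRα effects, and 1 for Clone 1 and for Clone 3 against PC3-ML. With log2(intensity + 16), and with the replicate block, the count for Clone 3 against PC3-ML was 1, as NFKB1 lost its call. The NFKB1 call in Clone 3 against PC3-N was also lost with log2(intensity + 16) (adjusted p = 0.0542) and with the replicate block (0.0562). The block changed no other count of the 9 genes. The replicate numbers are only numbers here, so this is not a paired analysis.

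Leaving out 1 array gave 4 to 7 genes differing among the lines, 0 to 1 in PC3-ML against PC3-N, 0 to 1 for the difference of the PDGFRα effects, and 2 to 3 in each clone against PC3-N. It gave 0 to 2 in each clone against PC3-ML and 3 to 5 in PC3-N against DU-145. Leaving out 1 line gave 0 to 3 for the bone-metastatic label. The cause of these losses was not tested. Among the lines, the filter on dim genes gained RELA (adjusted p = 0.0417) and lost RELB (0.0628), the trended robust prior also lost RELB (0.0526), and RELA was called without Clone 3 passage 1 (0.0407). NFKBIA, TNFAIP3 and ICAM1 kept their calls among the lines and between PC3-N and DU-145 in every alternative. With 2 passages per line, and intensities near the array median for TNFAIP3, ICAM1, RELB and NFKBIE in several lines, small differences in these genes are not resolved.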
